A study of Mus musculus with 4 samples.

Results

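The machinery of regulated exocytosis was followed gene by gene in RNA-seq of E18.5 mouse pancreas. The set holds 33 genes of SNARE proteins, complexins, priming factors, Rab3 and Rab27 GTPases with their effectors, and synaptic vesicle proteins, matched by symbol among the 24391 genes counted. All 33 were found, and 31 passed the filter on low counts. Libraries came from *Rest* pKO embryos (labelled *Pdx1*Cre with both *Rest* alleles floxed) and from controls (labelled *Pdx1*Cre with wild-type *Rest*), with 2 libraries per genotype, all of age E18.5 and of a mixed strain background with C57BL/6. By the labels both genotypes carry the Cre transgene, which the *Pdx1* promoter drives in the pancreatic epithelium and not in mesenchyme, nerve or blood cells, and the floxed allele loses exon 4 of *Rest*. A heading in the study's supplement names the comparison animals by the floxed allele instead, so that the controls carry Cre rests on the labels. The methods mention more embryos per genotype than the libraries analysed here, and litters are not given.

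Endocrine cells and neurons release hormones and transmitters by the same route. A vesicle carrying a Rab3 or Rab27 GTPase is tethered at the plasma membrane through Rab effectors, is primed by UNC13 and CAPS proteins, and fuses when VAMP2 on the vesicle zips up with syntaxin 1A and SNAP25 on the membrane. Complexins hold the assembled SNAREs until calcium enters, and NSF with its SNAP adaptors takes the spent complex apart. REST is a zinc finger repressor that keeps many of these genes silent outside neurons and endocrine cells by binding an element called RE1. In the pancreas the machinery serves islet hormone release, while acinar cells use related Rab proteins on zymogen granules.

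Counts summed to between 16936759 and 24134100 per library. *Rest* itself was at 12.1 and 9.16 CPM (counts scaled to a common library size with TMM factors) in *Rest* pKO and at 14.2 and 15.7 CPM in controls, though a gene total from the whole organ does not measure the loss of 1 exon in the epithelium. Counts of *Xist* and of Y-linked genes showed 1 female and 1 male embryo in each genotype, so the libraries of a genotype come from different animals. Over 14550 genes tested, edgeR called 0 higher (0% of genes tested) and 4 lower (0.0275%) in *Rest* pKO at an adjusted p under 0.05, while an unadjusted p under 0.05 took in 474 higher (3.26%) and 816 lower (5.61%). Calls were 26 higher (0.182%) and 76 lower (0.533%) in DESeq2, and 0 higher and 3 lower (0.0206%) in limma-voom. A fit of edgeR that adds sex, with 1 residual degree of freedom, called 60 higher (0.412%) and 187 lower (1.29%). Its p-values are those of a normal distribution, with the spread pooled across genes instead of measured gene by gene. They can thus be small for genes whose replicates differ widely, and this fit is not a stricter test. Throughout, log2 fold changes are of *Rest* pKO over control and are given ± their standard error. Fewer cells of a type and less RNA per cell cannot be told apart in these whole-organ libraries.

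Most exocytosis genes lay somewhat higher in *Rest* pKO, with the smallest edgeR p-values for *Cplx2*, *Syp*, *Sytl4* and *Cadps*. The log2 fold change was positive for 25 of the 31 genes tested and negative for 6, where 49.5% of all genes tested were positive. Its median came to 0.30, against 0.00 for all genes. The set was chosen with earlier results of these data known, so its counts are descriptions. The 2 *Rest* pKO libraries both exceeded the 2 controls for 14 of the 31 (21.5% of all genes), both lay under them for 0 (21.2% of all genes), and the genotypes overlapped for 17. At an unadjusted p under 0.05, edgeR gave 5 of the 31 as higher and 0 as lower, where 3.26% and 5.61% of all genes were. The fifth, *Rims1*, drops out under a filter of 1 CPM in 2 libraries, which leaves 4. DESeq2 gave 3 as higher at that level, where 2.16% of all genes were higher and 4.79% lower, and the fit that adds sex gave 5, where 2.6% were higher and 6.82% lower. At an adjusted p under 0.05 none passed in edgeR, in the fit that adds sex or in limma-voom, and DESeq2 called *Cplx2* alone. The filter took in *Rims1* and *Sv2b* through both *Rest* pKO libraries, while only 1 control library reached its minimum for each. With no filter, 27 of all 33 genes were positive with a median of 0.31, where 49.5% of 18476 genes were, and 16 were separated upward, where 19.5% were.

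**Figure D1:**
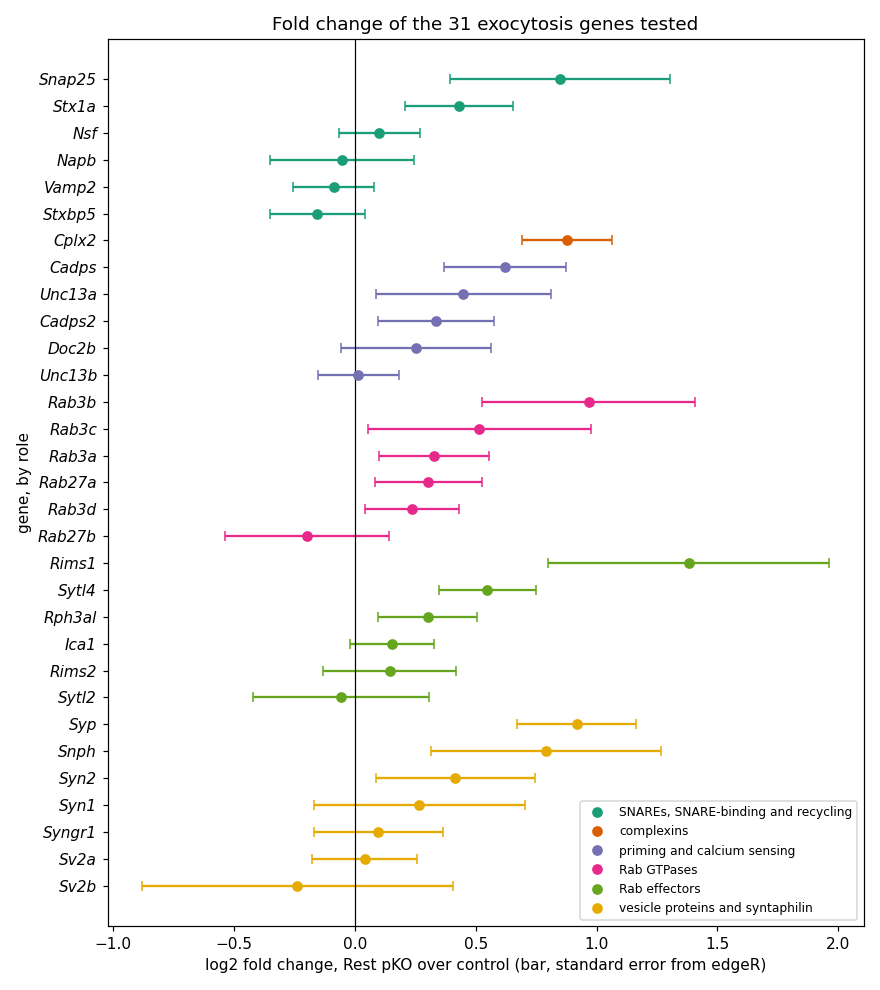
Log2 fold change (*Rest* pKO over control) of the 31 exocytosis genes tested, grouped by role, each point with its standard error from edgeR. Of these, 25 lie above 0, and *Stxbp5*, *Rab27b*, *Sv2b*, *Vamp2*, *Sytl2* and *Napb* lie below it.

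RE1-like letters near the start of these genes were read from the mm9 genome, because they are the sequence through which REST is known to act. The search covered 1500 bases on each side of an annotated start, on both strands, for TTCAGCACC, 2 bases of any kind and GGACAGCGC, with at least 14 of these letters in place. Such a match was found for 6 of the 33 genes (18.2%), against 970 of 20673 genes placed on the genome (4.69%). The matches are shown 5′ to 3′ on the strand of the motif, with the aligned bases in capitals.
*Snap25*, second match: acctTTCAGCACCGCGGACAGCGAtccg
*Snap25*, first match: ggagCTCAGCACCCTGGACAGGAGtgct
*Syp*: gcgcTCCAGCACCGTGGACAGAGCccgg
*Syn1*: cggaTTCAGCACCGCGGTCAGAGCcttc
*Cadps*: taggTTCAGCACGCTGGCCAGCTCcccc
*Rph3a*: ggcaGTCAGTACCACGGACAGCACcagg
*Cplx2*: tcccTTCAGCACCACAGCGAGCGGgtag

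The closest, with 17 letters in place, lay in an intron of *Snap25* at chr2:136540074-136540093 (plus strand), 894 bases after the start, and the other *Snap25* match, with 14 letters, lay at chr2:136540024-136540043 (plus strand). That of *Syp*, with 16 letters, lay in a coding exon at chrX:7215863-7215882 (plus strand), 275 bases after the start. *Syn1* had 16 letters in place at −136 bases from its start (negative positions lie before it), at chrX:20498257-20498276 (minus strand), and *Rph3a* 15 letters at −105 bases, at chr5:121459623-121459642 (plus strand). *Cadps* had 15 letters in place at −917 bases, at chr14:13656501-13656520 (minus strand), and *Cplx2* 14 letters in an intron 385 bases after, at chr13:54473089-54473108 (minus strand). These are matches of letters and were not tested for binding here.

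Of the 5 tested genes with a match, all 5 had a positive log2 fold change (median 0.85). The 3 genes *Cplx2*, *Cadps* and *Syp* (14, 15 and 16 letters) were separated upward, meaning both *Rest* pKO libraries over both controls. *Snap25* and *Syn1*, with 17 and 16 letters in place, overlapped between genotypes. The median is the value of *Snap25*, which itself fell to 0.03 without *Rest* pKO replicate 1. The median of the 5 was then 0.46, the value of *Cadps*. Without control replicate 1 the median was 0.96, the value of *Cplx2*. Without control replicate 2 the median was 0.68, with 4 of the 5 positive. The 26 tested genes without a match had a median of 0.24, with 20 positive and 11 separated upward, and their median lay between 0.16 and 0.19 when 1 library was left out. Across all tested genes that could be placed, the 709 with a match had a median of 0.05 and 25.8% of them were separated upward, against −0.01 and 21.4% for the 12627 without. By letters in place the median was 0.03 at 14 (582 genes), 0.10 at 15 (81 genes), 0.50 at 16 (27 genes), 0.58 at 17 (16 genes) and 0.24 at 18 (3 genes). Of the 46 genes with 16 or more, 54.3% were separated upward and 6.52% downward, against 23.5% and 22.2% at 14 letters. These counts are descriptions over genes, which are not independent replicates.

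Among the SNARE proteins, *Stx1a* was higher in both *Rest* pKO libraries, *Snap25* in 1 of them, and *Vamp2* overlapped between genotypes. *Snap25*, the membrane SNARE that neurotoxins cleave, was at 10.4 and 4.10 CPM in the *Rest* pKO replicates 1 and 2, against 4.76 and 3.33 CPM in the controls. *Rest* pKO replicate 1 thus stood alone, and replicate 2 lay between the controls. The log2 fold change of 0.85 ± 0.45 (edgeR adjusted p = 0.637) came to 0.03 without *Rest* pKO replicate 1 and to 1.37 without replicate 2. *Snap25* lies on chromosome 2 from 136539189 to 136608164 (mm9).
*Stx1a*, syntaxin 1A, the other membrane SNARE of hormone release, was at 10.9 and 10.1 CPM in *Rest* pKO and at 7.50 and 8.07 CPM in controls. The genotypes did not overlap, with a log2 fold change of 0.43 ± 0.22 (edgeR adjusted p = 0.629). *Vamp2*, synaptobrevin 2, the vesicle SNARE, was at 68.9 and 62.0 CPM in *Rest* pKO and at 70.8 and 68.4 CPM in controls, so its libraries overlapped (log2 fold change −0.09 ± 0.17).
The SNARE-binding and recycling genes differed by little. *Nsf*, the ATPase that disassembles SNARE complexes, was at 44.7 and 45.8 CPM in *Rest* pKO and at 43.7 and 40.7 CPM in controls (log2 fold change 0.10 ± 0.17), separated by a margin well under its standard error. *Napb*, the beta-SNAP adaptor of NSF, was at 3.94 and 3.37 CPM in *Rest* pKO and at 3.75 and 3.83 CPM in controls. *Stxbp5*, tomosyn, which blocks SNARE assembly by occupying syntaxin, was at 41.9 and 32.2 CPM in *Rest* pKO and at 42.1 and 40.4 CPM in controls. *Napb* and *Stxbp5* overlapped between genotypes, and of the 6 genes of this group 3 were positive and 3 negative.

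**Figure D2:**
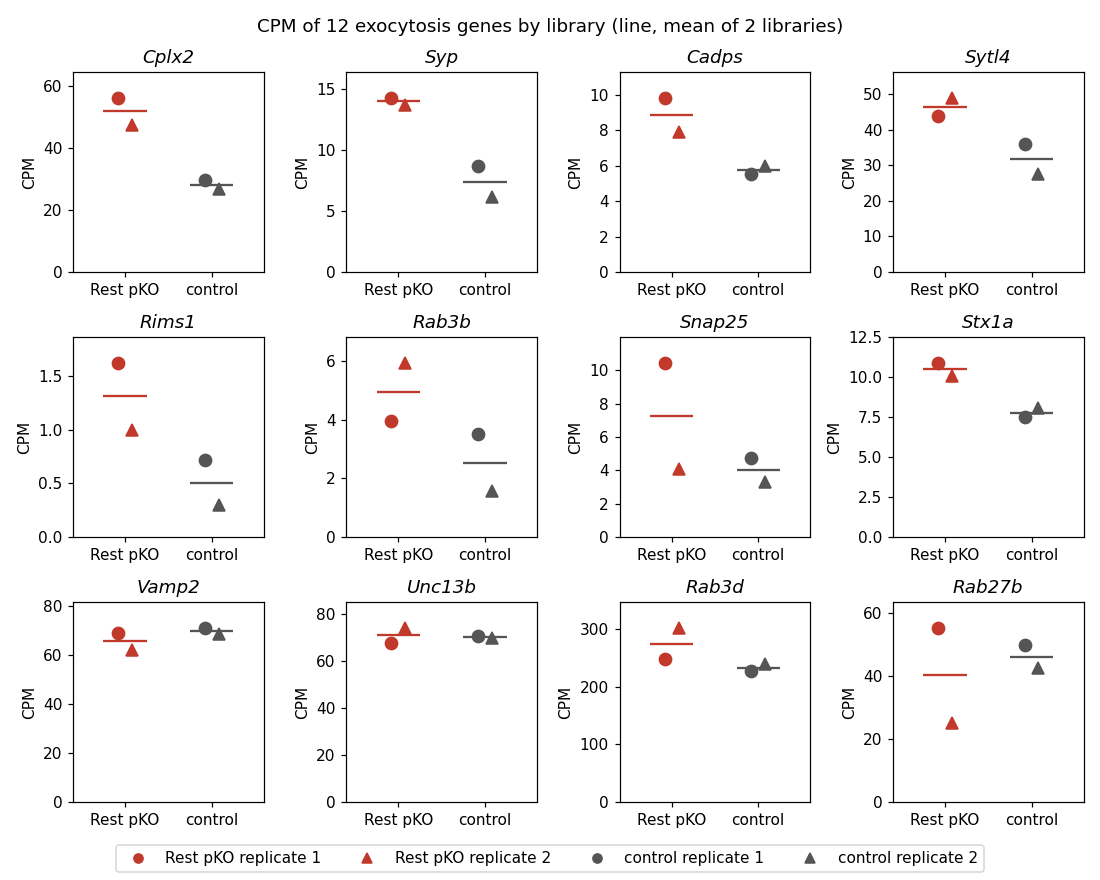
CPM of 12 exocytosis genes, each point 1 library (circle, replicate 1, and triangle, replicate 2) and each line the mean of 2 libraries, with *Rest* pKO left of control. *Cplx2*, *Syp*, *Cadps*, *Sytl4*, *Rims1*, *Rab3b*, *Stx1a* and *Rab3d* do not overlap between genotypes, while *Snap25* and *Rab27b* differ most between the 2 *Rest* pKO libraries.

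*Cplx2* was the gene of the set with the smallest p. Complexin 2, which clamps and then promotes SNARE fusion, was counted 1211 and 1043 times in *Rest* pKO, against 501 and 528 times in controls. This corresponds to 56.2 and 47.5 CPM in *Rest* pKO and 29.8 and 26.6 CPM in controls, so every *Rest* pKO library was well above every control. Means were 51.8 ± 6.11 CPM in *Rest* pKO and 28.2 ± 2.26 CPM in controls (SD, n = 2 each), 1.84-fold (log2 fold change 0.88 ± 0.19). The adjusted p was 0.357 from edgeR, 0.0704 with sex as a term and 0.0469 from DESeq2, where the threshold of 0.05 was passed, and it reached 0.803 among the other alternatives. Leaving out any 1 library kept the log2 fold change between 0.76 and 1.00. *Cplx2* lies on chromosome 13 from 54472713 to 54485278 (mm9).
*Cplx1*, its close relative in neurons, was barely counted, with 6 and 5 counts in *Rest* pKO and 2 and 2 in controls, and did not reach the filter. Nearly all complexin counts were thus from *Cplx2*, at 10.5 CPM per kb of exon in *Rest* pKO and 5.73 in controls, where *Cplx1* had 0.116 in *Rest* pKO and 0.0502 in controls.

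All 5 priming and calcium-sensing genes had a positive log2 fold change (median 0.33), and both CAPS genes were separated by genotype. *Cadps*, CAPS1, which primes dense-core granules, was at 9.83 and 7.93 CPM in *Rest* pKO and at 5.54 and 6.00 CPM in controls. Its log2 fold change was 0.62 ± 0.25, with an edgeR adjusted p of 0.540 and a DESeq2 adjusted p of 0.815. *Cadps2*, CAPS2, was at 11.5 and 11.4 CPM in *Rest* pKO and at 7.68 and 10.4 CPM in controls, a smaller and less even step (log2 fold change 0.33 ± 0.24). *Cadps* lies on chromosome 14 from 13205077 to 13655593 (mm9).
*Unc13a* and *Unc13b* encode Munc13 priming factors, and *Doc2b* a high-affinity calcium sensor that binds them. *Unc13a* was at 8.81 and 6.29 CPM in *Rest* pKO and at 7.26 and 3.83 CPM in controls (log2 fold change 0.45 ± 0.36). *Unc13b*, the more abundant, was at 67.8 and 73.9 CPM in *Rest* pKO and at 70.8 and 69.6 CPM in controls (log2 fold change 0.01 ± 0.17). *Doc2b* was at 4.50 and 4.01 CPM in *Rest* pKO and at 3.04 and 4.09 CPM in controls (log2 fold change 0.25 ± 0.31). These 3 genes overlapped between genotypes.

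The log2 fold change was positive for 5 of the 6 Rab GTPases and negative for *Rab27b*. *Rab3b* was at 3.94 and 5.92 CPM in *Rest* pKO and at 3.51 and 1.56 CPM in controls. The genotypes were separated, but control replicate 1 came close to *Rest* pKO replicate 1, and the log2 fold change of 0.97 ± 0.44 (edgeR adjusted p = 0.588) came to 0.49 without control replicate 2 and 1.65 without control replicate 1. *Rab3a*, the main Rab3 of synaptic vesicles, was at 12.2 and 15.1 CPM in *Rest* pKO and at 11.9 and 9.89 CPM in controls (log2 fold change 0.33 ± 0.23).
*Rab3d*, the Rab3 of acinar zymogen granules, was by far the most abundant gene of the set. It was at 247 and 301 CPM in *Rest* pKO and at 227 and 238 CPM in controls (log2 fold change 0.24 ± 0.19, edgeR adjusted p = 0.712). The 24 acinar markers counted include enzymes, granule proteins and transcription factors. They took 40.4% and 46.5% of all counts in the *Rest* pKO replicates 1 and 2, against 39.8% and 38.8% in the controls. *Rab3d* and the acinar share were thus both highest in *Rest* pKO replicate 2. The part of acinar RNA in its level was not tested.
*Rab3c* was scarce, at 2.27 and 1.28 CPM in *Rest* pKO and 1.43 and 1.06 CPM in controls, and overlapped between genotypes (log2 fold change 0.51 ± 0.46). *Rab27a*, which tethers insulin granules, was at 39.5 and 29.5 CPM in *Rest* pKO and at 30.95 and 24.92 CPM in controls (log2 fold change 0.30 ± 0.22). *Rab27b*, also a Rab of acinar granules, was at 55.3 and 25.3 CPM in *Rest* pKO and at 49.9 and 42.5 CPM in controls. The 2 *Rest* pKO libraries lay on either side of the controls, and the log2 fold change of −0.20 ± 0.34 turned to 0.26 without *Rest* pKO replicate 2.

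Among the Rab effectors, *Sytl4* had the smallest p. *Sytl4*, granuphilin, which docks insulin granules through Rab27a, was at 44.0 and 49.0 CPM in *Rest* pKO and at 36.1 and 27.5 CPM in controls. Both *Rest* pKO libraries were above both controls, with a log2 fold change of 0.55 ± 0.20 (edgeR adjusted p = 0.504, DESeq2 adjusted p = 0.609). The margin between genotypes was smaller than the gap between the controls. The log2 fold change came to 0.36 without control replicate 2 and to 0.75 without control replicate 1. *Sytl4* lies on chromosome X from 130470924 to 130516351 (mm9).
*Rims1*, an active-zone scaffold that binds Rab3, had the largest log2 fold change of the set at low counts, 35 and 22 in *Rest* pKO against 12 and 6 in controls. In CPM these were 1.62 and 1.00 in *Rest* pKO and 0.714 and 0.303 in controls, a log2 fold change of 1.38 ± 0.58 (edgeR adjusted p = 0.556). It ranged from 0.87 without control replicate 2 to 2.09 without control replicate 1, and the DESeq2 adjusted p was 0.890. Since *Rims1* passed the filter only through its *Rest* pKO libraries, its value is given as a description. *Rims2*, the RIM of beta cells, was at 5.19 and 5.01 CPM in *Rest* pKO and at 5.0004 and 4.24 CPM in controls, separated, but by a difference within its standard error (log2 fold change 0.14 ± 0.28).
The other effectors overlapped between genotypes or were too scarce to test. *Rph3al*, noc2, which acts with Rab3 and Rab27 in endocrine and exocrine secretion, was at 46.1 and 59.5 CPM in *Rest* pKO and at 47.2 and 38.5 CPM in controls (log2 fold change 0.30 ± 0.21). *Ica1*, the islet autoantigen ICA69, was at 74.2 and 81.9 CPM in *Rest* pKO and at 74.6 and 65.9 CPM in controls (log2 fold change 0.15 ± 0.17). *Sytl2*, a Rab27 effector, was at 2.87 and 5.33 CPM in *Rest* pKO and at 4.41 and 4.14 CPM in controls, with its *Rest* pKO libraries on either side of the controls. *Rph3a*, rabphilin of synaptic vesicles, had 7 and 3 counts in *Rest* pKO and 2 and 0 in controls.

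Of the vesicle proteins, *Syp* differed most by genotype. Synaptophysin, the most widely used marker of neuroendocrine vesicles, was at 14.3 and 13.7 CPM in *Rest* pKO and at 8.69 and 6.15 CPM in controls. Means were 13.996 ± 0.403 CPM in *Rest* pKO and 7.42 ± 1.79 CPM in controls (SD, n = 2 each), 1.89-fold (log2 fold change 0.92 ± 0.25). The adjusted p was 0.424 from edgeR, 0.120 with sex as a term and 0.255 from DESeq2, and the log2 fold change lay between 0.69 and 1.18 when 1 library was left out. *Syp* lies on chromosome X from 7215597 to 7230382 (mm9) and shares 875 exon bases with an uncounted antisense gene, *Gm14703*, whose reads cannot be told apart without strand.
*Snph*, syntaphilin, which binds syntaxin and anchors mitochondria in axons, was at 2.36 and 2.19 CPM in *Rest* pKO and at 1.85 and 0.807 CPM in controls (log2 fold change 0.79 ± 0.48). This value came to 0.30 without control replicate 2 and to 1.48 without control replicate 1. *Syn2*, synapsin II, which tethers vesicles to actin, was at 3.85 and 4.15 CPM in *Rest* pKO and at 2.44 and 3.53 CPM in controls (log2 fold change 0.42 ± 0.33). Both genes were separated by genotype by margins smaller than the gap between the controls.
*Syn1*, synapsin I, was at 1.85 and 1.41 CPM in *Rest* pKO and at 1.67 and 1.06 CPM in controls, and its libraries overlapped. The vesicle glycoprotein *Sv2a* was at 10.6 and 9.52 CPM in *Rest* pKO and at 9.70 and 9.83 CPM in controls (log2 fold change 0.04 ± 0.22). *Sv2b*, its relative, was scattered, with 25 and 15 counts in *Rest* pKO and 8 and 33 in controls. *Syngr1*, synaptogyrin 1, a relative of synaptophysin, was at 6.12 and 5.24 CPM in *Rest* pKO and at 5.06 and 5.55 CPM in controls.

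The levels of the 33 genes were compared per kb of exon. In *Rest* pKO *Rab3d* was highest at 65.3 CPM per kb, followed by *Ica1* at 24.1 and *Vamp2* at 17.2, and in controls these stood at 55.5, 21.7 and 18.3 CPM per kb. Next in controls came *Rph3al* at 11.2 and *Rab27a* at 9.40 CPM per kb, whose libraries overlapped, and then *Sytl4* at 6.21 and *Cplx2* at 5.73, which overlapped as well. *Unc13b*, *Nsf*, *Rab3a* and *Rab27b* followed at 5.20, 5.06, 4.89 and 4.33 CPM per kb in controls, each overlapping its neighbour. *Cplx2* stood at 10.5 CPM per kb in *Rest* pKO, between *Rab27a* at 11.6 and *Sytl4* at 9.07. On the same scale *Snap25* had 1.07 CPM per kb in *Rest* pKO and 0.596 in controls, and *Stx1a* 3.94 in *Rest* pKO and 2.92 in controls. *Cplx1* and *Rph3a* were lowest, at 0.116 and 0.0559 CPM per kb in *Rest* pKO and at 0.0502 and 0.0144 CPM per kb in controls. Exon lengths came from an annotation other than the one used for counting, so these levels are approximate.

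**Figure D3:**
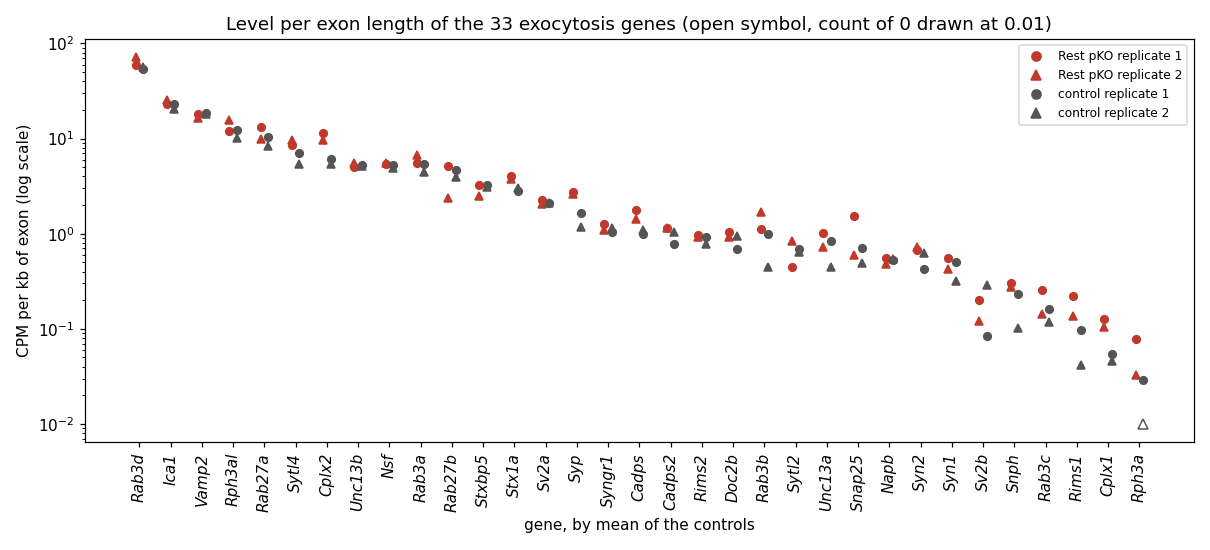
CPM per kb of exon (log scale) of all 33 exocytosis genes, each symbol 1 library, ordered by the mean of the controls, with *Rest* pKO left of control within a gene. *Rab3d* is highest at 65.3 CPM per kb in *Rest* pKO and 55.5 in controls, and the open symbol is a count of 0 for *Rph3a* in control replicate 2.

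Other genes of the exocytosis pathway, a list of further SNAREs, Munc18 and Munc13 proteins, active-zone scaffolds and Rab regulators, were divided evenly. Both this list and the 33 genes were chosen with earlier results of these data known, so their contrast is only a description. Of 62 tested, 29 were positive and 33 negative (median −0.03). At an unadjusted p under 0.05, 2 were higher and 4 lower in edgeR, where 3.26% and 5.61% of all genes were. At an adjusted p under 0.05 none passed in edgeR, in the fit that adds sex or in DESeq2. Separation was upward for 14 and downward for 11, where 21.5% and 21.2% of all genes were separated. Both the calls and the separations of these 62 genes thus lay near the shares of all genes. *Baiap3*, a Munc13-like protein of dense-core granule traffic, was at 26.3 and 34.8 CPM in *Rest* pKO and at 16.6 and 17.3 CPM in controls (log2 fold change 0.85 ± 0.21, edgeR adjusted p = 0.396). *Rab37*, a granule Rab of the Rab27 branch, was at 6.03 and 6.79 CPM in *Rest* pKO and at 3.87 and 3.83 CPM in controls (log2 fold change 0.73).
The other 3 of the 5 with the smallest p were negative. *Unc13d*, the Munc13 of leukocyte and platelet granules, was at 0.974 and 1.18 CPM in *Rest* pKO and at 1.85 and 3.78 CPM in controls (log2 fold change −1.38, edgeR adjusted p = 0.495). Of 12 mast cell, platelet and leukocyte markers tested, 10 were negative too, and the summed level of all 13 counted was 169 and 220.1 CPM in *Rest* pKO and 297 and 465 CPM in controls. Their part in the *Unc13d* value was not tested. *Snap23*, the SNAP25 relative of non-neuronal cells, was at 36.0 and 27.1 CPM in *Rest* pKO and at 46.1 and 43.1 CPM in controls (log2 fold change −0.50 ± 0.20, edgeR adjusted p = 0.540). *Synj1*, a lipid phosphatase of vesicle recycling, was at 20.2 and 15.7 CPM in *Rest* pKO and at 29.2 and 23.3 CPM in controls (log2 fold change −0.55).

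Genes that mark endocrine cells had a larger median fold change than the exocytosis machinery, but over a wide range. All 17 endocrine markers were positive (median 0.66, from 0.10 to 1.41). Of these, 11 were separated upward (21.5% of all genes) and 6 overlapped between genotypes. Their summed level, largely from hormone genes, was 4936 and 6956 CPM in *Rest* pKO and 3376 and 2246 CPM in controls. At an adjusted p under 0.05 edgeR called 0 of them. DESeq2 called 6 higher, where 0.182% of all genes were. The fit that adds sex, whose p-values have the limit given above, also called 6 higher, where 0.412% were. The hormone genes *Ins1*, *Ins2* and *Gcg* had log2 fold changes of 1.41, 1.23 and 0.72, and *Chga*, the granule protein chromogranin A, one of 1.30. The 10 granins and granule proteins, 5 of which are also endocrine markers, had a median of 0.66, and 13 tested synaptotagmins, the calcium sensors of release, one of 0.51, against 0.30 for the exocytosis genes. These differences between lists were not tested.
Neuron and Schwann cell markers, whose cells also hold this machinery, lay higher as well. All 11 tested were positive (median 0.58), and the summed level of all 16 was 70.2 and 76.5 CPM in *Rest* pKO and 50.7 and 51.5 CPM in controls. Of the 11, 9 were separated upward (21.5% of all genes) and 2 overlapped between genotypes. None was called at an adjusted p under 0.05 in edgeR, DESeq2 or the fit that adds sex. Among the defining markers, *Dbh*, the enzyme that makes noradrenaline, was at 0 in 3 of 4 libraries. Acinar markers were positive in 20 of 24, with a smaller median of 0.09. The part of endocrine and nerve cells in the values of the exocytosis genes was not tested.

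**Figure D4:**
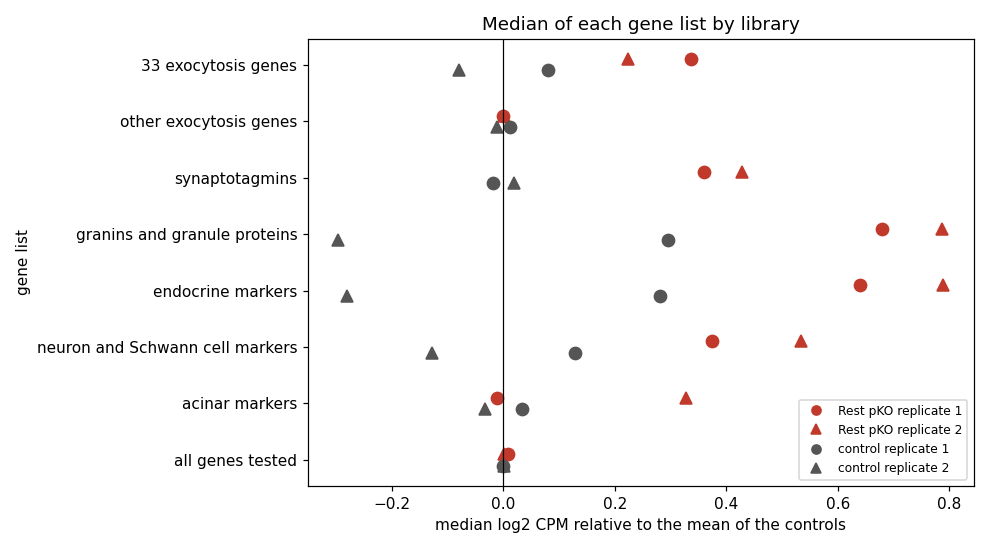
Median over each gene list of log2 CPM relative to the mean of the controls, each symbol 1 library (*Rest* pKO above control within a list). The 33 exocytosis genes lie at 0.34 and 0.22 in *Rest* pKO and 0.08 and −0.08 in controls, between all genes and the endocrine markers, which lie at 0.64 and 0.79 in *Rest* pKO and 0.28 and −0.28 in controls.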

How the data were processed

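The authors made the deposited values, whole-number counts per gene, by aligning paired-end Illumina reads to mm9 with STAR and counting the uniquely mapped ones over UCSC genes with featureCounts (1.5 in the submitters' processing notes). Strand and pair settings are not given in the sources used here. Of 24391 genes, 5915 had no count. Genes were filtered with filterByExpr, scaled by TMM and tested with edgeR 4.0.16 (glmQLFit, glmQLFTest) in R 4.3.3, genotype as the only term, with Benjamini-Hochberg adjustment over all 14550 genes and a threshold of 0.05. The standard error is the log2 fold change over the square root of F. With 2 libraries per genotype the fit has 2 residual degrees of freedom and 5.48 more borrowed across genes. Biological coefficient of variation was 0.211. CPM use TMM-scaled library sizes.

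Positions, exon lengths, starts (of the first-listed coding transcript) and sequence came from NCBIM37 (mm9) with GENCODE vM1. Median deviations by library added 0.5 CPM before the log. Alternatives were DESeq2 1.42.0, limma-voom (limma 3.58.1), other scalings and filters, a replicate block, sex as a term, removal of an exon length trend and leaving out each library. The procedure was checked on simulated counts. Members, lists and alternatives were chosen with earlier results of these data known. Outside the full set of 33 genes, the rule names *Rest*, the 5 pathway genes with the smallest p, and up to 3 of each marker list by mean CPM. *Dbh* was chosen after its values were seen.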

Additional observations from a re-analysis of the deposited data

How the results depend on the processing

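The count of exocytosis genes with a log2 fold change above 0 lay between 24 and 29 in the 13 alternatives run. Their median lay between 0.28 and 0.31 in all alternatives with 4 libraries, and between 0.19 (without *Rest* pKO replicate 1) and 0.34 (without *Rest* pKO replicate 2) when 1 library was left out. The count at an unadjusted p under 0.05 and higher, 5 in edgeR, was 3 in DESeq2 and between 1 (without control replicate 2) and 8 (without control replicate 1). The count with *Rest* pKO libraries above controls, 14, was between 17 (without control replicate 2) and 24 (without *Rest* pKO replicate 2) with a library left out, which asks for fewer libraries to be apart. Over all genes, DESeq2 called 26 higher and 76 lower, and sex as a term 60 higher and 187 lower. Leaving out 1 library gave 1 to 59 higher and 0 to 455 lower, fewest without *Rest* pKO replicate 2 and most lower without *Rest* pKO replicate 1. The cause was not tested. With the exon length trend removed (Spearman's rho across 13336 genes −0.30), the log2 fold change turned to 0.12 for *Stxbp5*, 0.0811 for *Napb*, 0.0376 for *Rab27b* and 0.0520 for *Sytl2*. With 1 library left out, the sign changed within a range of −0.356 to 0.0267 for *Stxbp5*, −0.166 to 0.0598 for *Napb*, −0.0459 to 0.0783 for *Unc13b*, −0.866 to 0.264 for *Rab27b*, −0.565 to 0.323 for *Sytl2*, −0.0305 to 0.618 for *Syn1*, −0.0339 to 0.118 for *Sv2a*, −0.853 to 0.941 for *Sv2b* and −0.0153 to 0.210 for *Syngr1*. The other 24 genes kept their direction in every alternative that included them. *Cplx1* and *Rph3a* were included only with no filter and in DESeq2, so not with a library left out. *Rims1* was not included under the filter of 1 CPM in 2 libraries. In the replicate block, where same-numbered libraries share only a number (correlation of deviations 0.07), 7 exocytosis genes were higher at an unadjusted p under 0.05, the median was 0.30, and 0 genes were called higher and 4 lower over all genes. Removal of the length trend gives no test, so no count of calls. Low counts limit *Cplx1*, *Rph3a*, *Rims1*, *Sv2b* and *Rab3c*.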
